A study of Bos taurus with 48 samples.

Results

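The subject is a set of 150 array probes, of 21475 that target bovine transcripts, whose signal in skeletal muscle stood higher in newborn calves than in fetuses at 195 d of gestation and in calves at 3 months. Members were chosen by their measured signal at these 3 ages: they were ranked by the smaller of these 2 differences on a log2 scale centred on each channel's median, among 10957 probes well above background in every newborn channel, and the first 150 of 5268 with a positive value were kept. The smaller difference ran from 1.56 to 4.65 with a median of 1.89, and was the one against 3 months for 119 members and against 195 d for 31. The last member inside and the first probe outside both stood at 1.56. Of the 150 probes 119 carry a gene symbol, CEBPD and ARID5B each through a pair of probes, and 31 have none and are mostly only counted. At 195 d 13 members, and at 3 months 4, were not well above background in any channel. Because birth, 195 d and 3 months chose the members, their values at those ages are a description, and no test compares those ages.

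The samples were longissimus muscle of the back, taken from 35 animals on 48 two-colour arrays. Development was followed in Piedmontese × Hereford and Wagyu × Hereford cattle at 60, 135 and 195 d of gestation, at birth (280 d) and at 3, 7, 12, 20, 25 and 30 months; Piedmontese cattle carry a myostatin defect that enlarges muscle, while Wagyu are known for fat within muscle. Birth was represented by 6 animals, 3 of each cross, the other ages by 2 to 8 animals. The arrays were grouped on 12 slides. The newborn arrays, always at slide position 4, shared their slides with those at 195 d but not with those at 3 months. Age and slide therefore cannot be told apart in birth against 3 months, nor age and slide position in birth against 195 d. Slide position also cannot be told apart from age in 135 against 60 d, 20 against 7 months and 30 against 25 months. The 60 d arrays used the same animal of each cross 3 times, so that age rests on 2 animals. All Piedmontese channels at 195 d came from GP041A and GP041B, counted as 2 animals. The labels do not say whether these are 2 fetuses or 2 samples of 1. A separate experiment put adult Belmont Red cattle on a weight loss or a weight growth diet and sampled them at times 0, 1 and 2.

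Birth ends the supply of nutrients through the placenta, and in ruminants it follows a surge of fetal cortisol that matures many organs. In muscle, fibre number is largely fixed before birth, and later growth is by enlargement of fibres, which calls for ribosomes and amino acids. Cortisol acts through the glucocorticoid receptor, which raises metallothioneins, the factor CEBPD and growth arrest genes in many tissues. CDKN1A, or p21, halts the cell cycle by inhibiting cyclin-dependent kinases.

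The array sees each gene through an oligonucleotide of 60 bases. Those of 6 member probes, for 5 genes, are printed, and what else these letters could hybridise was not tested. The hypoxia-linked CA9 and the plasma protein HP rank 2 and 10, and ARID5B was found through a pair of separate probes. ART3 had the largest rise from early gestation to postnatal life, and MYBPH was 1 of 2 members that fell from 25 to 30 months. No base is singled out, so all letters are in lower case, 5′ to 3′ as the array files give them.
CA9: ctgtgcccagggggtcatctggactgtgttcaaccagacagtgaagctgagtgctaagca
HP: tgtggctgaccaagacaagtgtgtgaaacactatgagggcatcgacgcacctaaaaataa
ARID5B, rank 40: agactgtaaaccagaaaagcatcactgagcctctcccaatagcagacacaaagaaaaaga
ARID5B, rank 66: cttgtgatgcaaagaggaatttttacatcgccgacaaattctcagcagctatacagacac
ART3: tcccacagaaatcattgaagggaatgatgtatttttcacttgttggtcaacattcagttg
MYBPH: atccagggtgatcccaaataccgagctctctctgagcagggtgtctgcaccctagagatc
The median share of G and C was 45% in the members' probes and 43.3% in all eligible probes.

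Between 48.5% and 74.2% of probes were well above background in each of the 96 channels, and between 51.3% and 73.8% in the newborn channels. One channel stood apart: the Cy3 sample of replicate 2 at 135 d, animal GP672, had a mean correlation of 0.926 with the other channels, against 0.964 to 0.992 for every other one. Its muscle fibre markers averaged 9.48, below the 12.88 to 13.48 of the other fetuses of that age, and its adipocyte markers averaged 12.75 against 8.73 to 9.60, so it goes against its muscle label. Results that use it are given with and without its array. All levels below are normalised log2 intensities, 1 value per animal, which can be compared between animals for a probe but not between probes.

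In the newborns the median over the 150 members was 11.67, 11.68 and 11.69 in the Piedmontese crosses and 10.96, 11.68 and 10.87 in the Wagyu crosses. The same median lay between 8.44 and 8.98 in all fetuses, and between 9.25 and 10.44 in all cattle from 3 to 30 months, while the median over all probes was 9.34 to 9.36 in the newborns. After birth the members' median stayed between 9.25 and 9.84 up to 25 months and was 9.82 to 10.44 at 30 months.

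**Figure D1:**
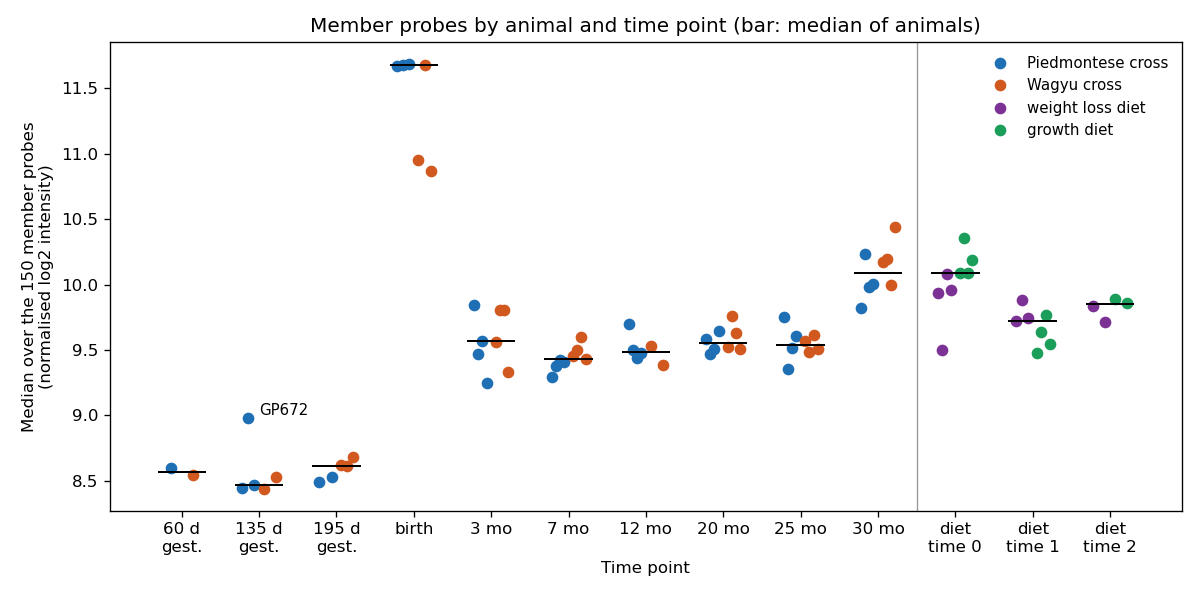
Median normalised log2 intensity over the 150 members in each animal (points) at 13 time points, with a bar at the median of the animals; the horizontal axis is age or diet time. The 6 newborns lie at 10.87 to 11.69, above every animal of every other group, and GP672 is the highest of its age at 8.98.

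Over the 10 developmental ages, 141 of the 150 members had their highest mean at birth, beside 21.6% of eligible probes; this share uses the newborn values that chose the members. The other members were highest at 60 d (IRX3, THBS1, KRT18 and the unnamed AV591119 and AV663676), at 25 months (CYP4F2 and LOC55908) or at 30 months (ANXA9 and CSRP3). In 94 members every newborn exceeded every animal at 195 d and 3 months, beside 4.96% of eligible probes, a comparison that the rule itself used. Every newborn exceeded every animal at 60 and 135 d and from 7 to 30 months in 53 members, beside 1.85% of eligible probes. Without GP672 it was 59 members, beside 224 of 10957 eligible probes. The rule did not use these other ages, but the newborn values that chose the members enter both counts, so they are a description. The age with the next highest mean was 30 months for 65 members and 60 d for 28, and 3 months for 18.

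The members held genes of growth arrest and stress-linked transcription. CDKN1A stood at 15.46, 15.21 and 15.96 in the Piedmontese newborns and at 13.14, 15.99 and 13.41 in the Wagyu newborns. All 6 exceeded the fetuses at 195 d, at 11.45 to 12.56, and the calves at 3 months, at 11.31 to 12.97, but the lowest 2 did not exceed the fetuses at 60 d, at 13.92 to 14.26. The mean at birth was 6.74-fold that at 195 d and 7.04-fold that at 3 months. CEBPD, a transcription factor of the acute phase and of the glucocorticoid response, was at 12.81, 12.71 and 13.63 and at 11.21, 12.80 and 11.11 through the higher-ranked of its 2 probes, against 7.60 to 8.11 at 195 d and 8.90 to 10.46 at 3 months. The newborns did not overlap with either age, and the folds over 195 d were 23.8 and 23.7 by its probes. MYC, the growth-promoting factor that raises ribosome production, was at 13.92, 13.56 and 14.48 and at 12.27, 14.13 and 12.74, so that its lowest newborn lay just under the highest calf of 3 months at 12.36. BTG1, an antiproliferative factor, was at 15.33, 14.71 and 15.49 and at 13.74, 15.20 and 12.75. In all of these the same Wagyu newborns, GW071 and GW175, were the lowest pair.

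Among enzymes of metabolism and hormone synthesis, PNMT, which makes adrenaline from noradrenaline and is induced by glucocorticoids, was at 14.07, 14.63 and 13.54 in the Piedmontese newborns and at 13.02, 14.35 and 13.91 in the Wagyu newborns. It lay at 8.91 to 10.17 at 195 d and at 9.62 to 10.39 at 3 months, 18.7-fold and 13.7-fold below birth on average. Among the other developmental samples PNMT exceeded 10.59 in GP672 alone, at 14.83, and in the Belmont Red cattle it reached 13.74 at diet time 0. PDXK, which makes the active form of vitamin B6, was at 13.96, 13.43 and 12.70 and at 13.05, 13.49 and 12.91, against 7.58 to 8.05 at 195 d and 8.74 to 10.10 at 3 months. Its mean at birth was 43.3-fold that at 195 d and 12.8-fold that at 3 months, with no overlap and no low pair among the newborns. CA9, a carbonic anhydrase known as a hypoxia target, was at 8.91, 9.85 and 10.13 and at 8.18, 9.68 and 8.79 and was not well above background in any channel at 3 months, so that birth was at least 4.67-fold higher. AGT, the precursor of angiotensin, was 13.8-fold and NAMPT, an enzyme of NAD synthesis, 12.3-fold higher at birth than at 195 d, and 5.91-fold and 2.47-fold higher than at 3 months.

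Muscle structure genes and an amino acid transporter followed. ANKRD2, a sarcomere protein induced by stretch, was at 13.84, 13.97 and 13.69 and at 14.05, 14.39 and 14.17, against 10.06 to 10.86 at 195 d and 9.59 to 11.66 at 3 months. It stood at 7.35 to 7.39 at 60 d and reached 12.14 to 13.98 at 30 months, so the oldest cattle overlapped with the newborns. ART3, a mono-ADP-ribosyltransferase of muscle, was at 15.82, 15.38 and 15.24 and at 15.16, 15.75 and 14.53, above the 10.85 to 12.19 at 195 d and the 13.23 to 14.32 at 3 months. CSRP3, a protein of the Z-disc, was at 15.70, 14.64 and 15.73 and at 16.82, 16.23 and 16.69, but its mean was higher still at 30 months. SLC7A8, an exchanger of large neutral amino acids, was at 15.56, 15.80 and 16.28 and at 13.24, 15.89 and 12.90; here GW071 and GW175 fell within the 11.68 to 14.14 of calves at 3 months.

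Of the metallothioneins, which bind zinc and copper and whose near-identical copies a probe may not tell apart, MT2A was at 12.22, 13.17 and 14.30 and at 10.71, 13.62 and 11.90, with 7.49 to 8.28 at 195 d and 9.37 to 11.85 at 3 months. Its mean at birth was 27.9-fold that at 195 d but 3.75-fold that at 3 months, and GW071 lay within the 3-month calves. Of the acute phase proteins, SAA3, a serum amyloid, was at 10.21, 11.21 and 8.46 and at 8.16, 10.93 and 8.74, and HP, haptoglobin, was at 7.89, 9.22 and 10.16 and at 7.63, 8.47 and 9.17. SAA3 at 3 months reached 8.70 and at 30 months 11.98, so that it overlapped with the newborns at both ages.

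The members also held genes of ribosome assembly and nucleotide supply. NOP2, a methyltransferase of ribosomal RNA, was at 13.27, 13.09 and 12.58 and at 12.19, 13.52 and 12.63, against 11.51 to 11.70 at 195 d and 11.32 to 11.92 at 3 months. GNL3, nucleostemin of the nucleolus, was at 10.13, 9.96 and 9.07 and at 9.76, 10.31 and 9.89, against 7.57 to 7.88 and 8.06 to 8.56. IMPDH2, which limits the synthesis of guanine nucleotides, was at 14.74, 14.59 and 14.46 and at 14.71, 14.85 and 14.65, with 12.98 to 13.26 at 195 d and 12.70 to 13.13 at 3 months. In these 3 genes no newborn overlapped with either age. CCT3, a subunit of the chaperonin that folds actin and tubulin, was at 15.13, 14.90 and 15.04 and at 15.28, 15.23 and 15.44, with 14.36 to 14.55 and 13.49 to 14.27.

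**Figure D2:**
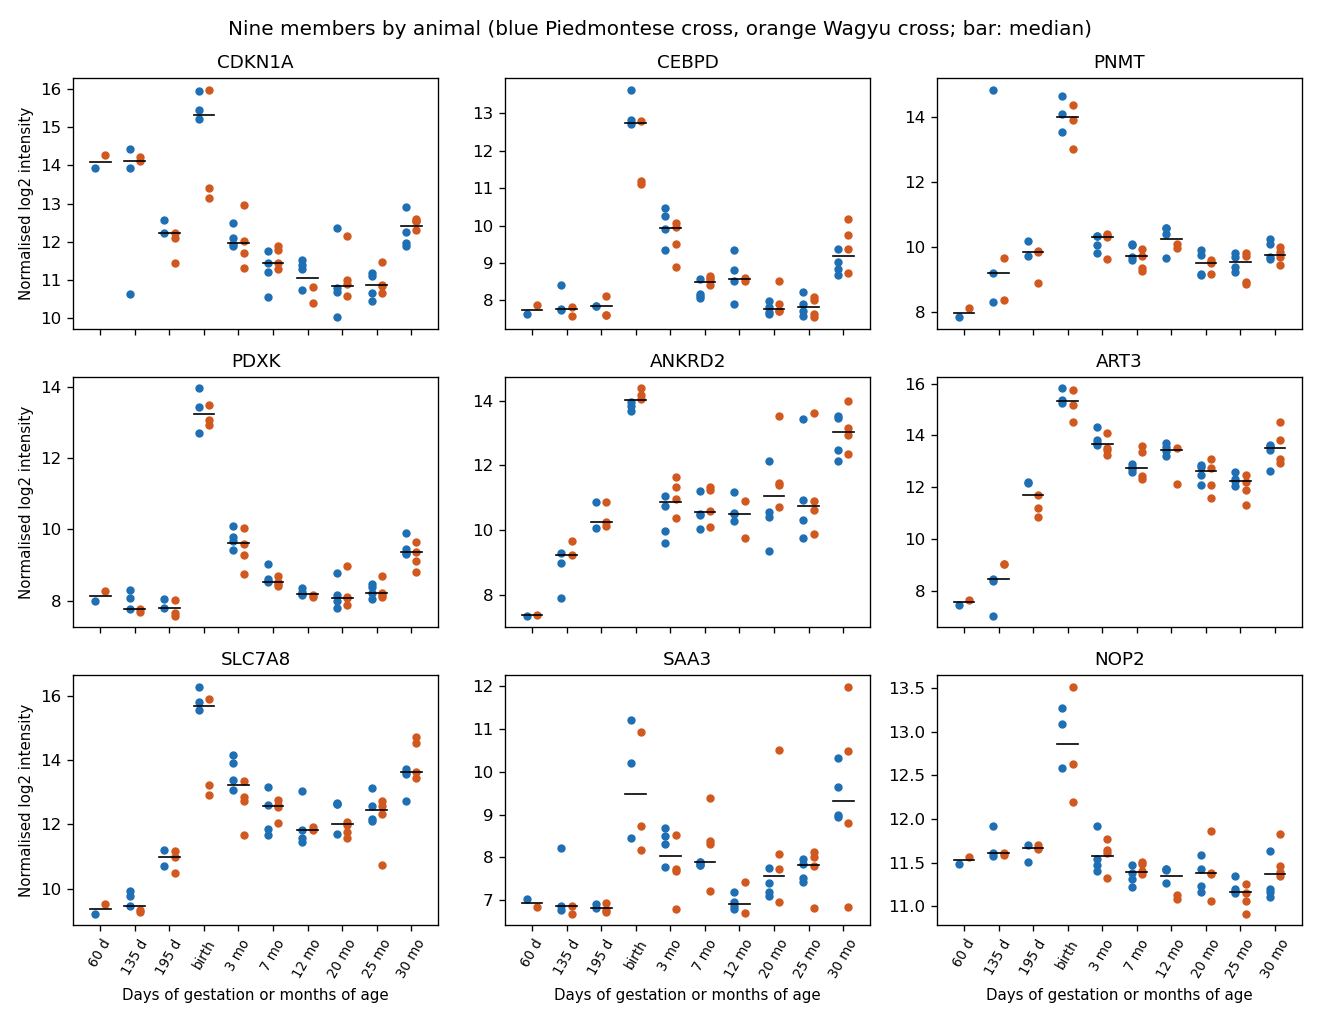
Normalised log2 intensity of 9 members, one panel each, in every animal (points) at the 10 developmental ages on the horizontal axis. The 6 newborns stand on average above both neighbouring ages, and CDKN1A is also high at 60 d, at 13.92 to 14.26. In SLC7A8 and SAA3 the lowest newborns lie below the highest calf of the next age after birth.

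Lists of related genes, written with earlier results of these data known, place the members in context. Of 21 probes of glucocorticoid-responsive genes, 3 of them members (CEBPD through both probes, and MT2A), 81.0% were higher at birth than at both neighbouring ages, beside 34.4% of all 14954 tested probes. Their median difference was 1.95 against 195 d and 0.25 against 3 months, beside 0.07 and 0.01 for all probes. In this and the lists that follow, the rule itself set every member higher at birth on the scale it used, so the counts describe and support nothing. So were 8 of 13 probes of FOXO and muscle atrophy genes (2 of them members), 11 of 18 hypoxia targets (1 member), 12 of 22 probes of fatty acid use, 9 of 18 heat shock probes and 10 of 19 probes of the amino acid stress response. The other lists had 6 of 15 metallothionein and oxidant response probes (2 members), 6 of 17 clock probes, 5 of 19 immediate early probes (1 member), 6 of 25 sarcomere isoforms (1 member), 4 of 14 insulin-like growth factor probes (1 member), 3 of 17 complement and acute phase probes (2 members), 3 of 14 lipid and steroid carrier probes, 2 of 16 myogenic probes and 0 of 15 interferon response probes. Among markers of cell types it was 2 of 12 for muscle fibres, 6 of 16 for neutrophils and monocytes, 5 of 13 for adipocytes, 2 of 8 for lymphocytes, 2 of 7 for nerve and Schwann cells, and 0 or 1 for the erythroid, fibroblast, endothelial, smooth muscle and proliferation lists. The fibroblast markers averaged 10.25 to 10.74 in newborns and 11.83 to 12.41 at 195 d, the erythroid markers 8.72 to 9.06 and 10.87 to 11.52, and the muscle fibre markers 14.64 to 15.14 and 14.12 to 14.46. These levels moved between 195 d and birth together with the members; their part was not tested, and in bulk tissue fewer cells of a type and less RNA per cell cannot be told apart.

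The ages that the rule did not use allowed tests, by limma across 14954 probes with a Benjamini-Hochberg adjusted p under 0.05; 148 members were among these. The first question was how the members change within early gestation. Between 135 and 60 d, 5 of 148 members passed the test, beside 5.59% of all probes. The esterase CES2 was higher at 135 d by 0.79 (SE 0.10, adjusted p = 0.0092), and the homeobox factor IRX3 was lower by 1.45 (adjusted p = 0.0060). With the array of GP672 left out, 31 members passed, 9 higher and 22 lower at 135 d, or 20.9% of the members beside 22.3% of all probes; ANKRD2 was then higher by 1.91 and CSRP3 by 1.88, and KRT18, a keratin, differed by -1.08. Leaving out replicate 1 at both ages left 2 members, beside 2.12% of all probes. Leaving out replicate 2 gave 25, or 16.9% beside 19.2% of all probes.

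The second question was where postnatal muscle stands against early fetal muscle. Comparing 9 animals at 7 to 30 months with 7 at 60 and 135 d, 97 members passed, 64 higher and 33 lower after birth, beside 76.7% of all probes; the members' median was 0.14 and that of all probes 0.05. ART3 had the largest rise: its postnatal animals lay at 12.19, 12.88 and 13.43 (lowest, median and highest) and the fetuses at 7.05, 8.40 and 9.05, a difference of 4.64 (SE 0.28, limma adjusted p = 1.31e-10). SLC7A8 rose by 2.94, ANKRD2 by 2.69, AGT by 2.66, the linker histone H1-2 by 2.58 and MT2A by 2.54. CDKN1A moved the other way, at 10.55, 11.38 and 11.70 after birth and 10.62, 14.13 and 14.42 before, a difference of -2.37 (SE 0.43, adjusted p = 8.73e-05); the single low fetus was GP672, and without its array the difference was -2.91. THBS1, a matrix glycoprotein, fell by 2.32, GPAT3, an enzyme of triglyceride synthesis, by 2.21 and MYC by 1.77. Of 14 ribosome assembly genes 5 rose and 6 fell, and of 6 muscle structure genes 4 rose and none fell; these role groups were put together after the values were seen. The glucocorticoid-responsive list had 16 of 21 probes higher after birth and none lower. Prenatal and postnatal animals were on separate slides, so slide and age cannot be told apart, and the muscle fibre markers rose with a median of 2.83 and the fibroblast markers fell by a median of 2.27.

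From 7 to 20 months, in 7 animals measured at both ages, 14 members passed, 8 higher and 6 lower at 20 months, beside 3.71% of all probes. IL6R, the receptor of interleukin 6, lay at 8.62, 9.46 and 10.29 at 7 months and at 9.99, 10.47 and 10.90 at 20 months, a rise of 1.07 (SE 0.13, limma adjusted p = 0.0072). GBE1, the branching enzyme of glycogen synthesis, rose by 0.95 (SE 0.09, adjusted p = 0.0024) and C15H11orf52 by 1.34. CEBPD fell by 0.84 and 0.54 in its 2 probes and LIMS2, an adaptor of integrin adhesion, by 0.78. With channels centred on their medians instead of the full normalisation, 1 member passed, beside 0.0869% of all probes. With replicates 1 to 4 left out in turn 6, 1, 6 and 0 did, beside 1.74%, 0.194%, 0.374% and 0.120%.

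The members were higher again in the oldest cattle. The comparison of 30 with 25 months used 8 animals measured at both ages on the same slides with dyes exchanged. In it 80 members passed, 78 higher and 2 lower at 30 months, beside 24.7% of all probes. This comparison was chosen after the data were seen. No slide position held both ages, so age and slide position cannot be told apart. The members' median difference was 0.31 and that of all probes 0.01, and 131 of 148 were positive. NAMPT lay at 10.37, 10.49 and 10.70 at 25 months and at 11.44, 11.97 and 12.30 at 30 months, with no overlap, a rise of 1.41 (SE 0.11, limma adjusted p = 6.47e-05). CDKN1A went from 10.43, 10.85 and 11.46 to 11.88, 12.42 and 12.90, a rise of 1.48 (SE 0.16, adjusted p = 0.000254), and rose in 8 of 8 animals. ART3 rose by 1.32 (SE 0.13, adjusted p = 0.000214) and GPAT3 by 1.86 (SE 0.20, adjusted p = 0.000243), each in 8 of 8. CEBPD rose by 1.92 and 1.40, and ANKRD2, by 1.82, in 7 of 8. SAA3 spread widely at 30 months, at 6.84, 9.31 and 11.98, and rose by 1.81 (SE 0.36, adjusted p = 0.00605). MYBPH, a myosin-binding protein of the sarcomere, was the largest fall, from 11.70, 12.47 and 14.15 to 9.97, 11.66 and 12.66, by 1.28 (SE 0.23, adjusted p = 0.0038), in 8 of 8.

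**Figure D3:**
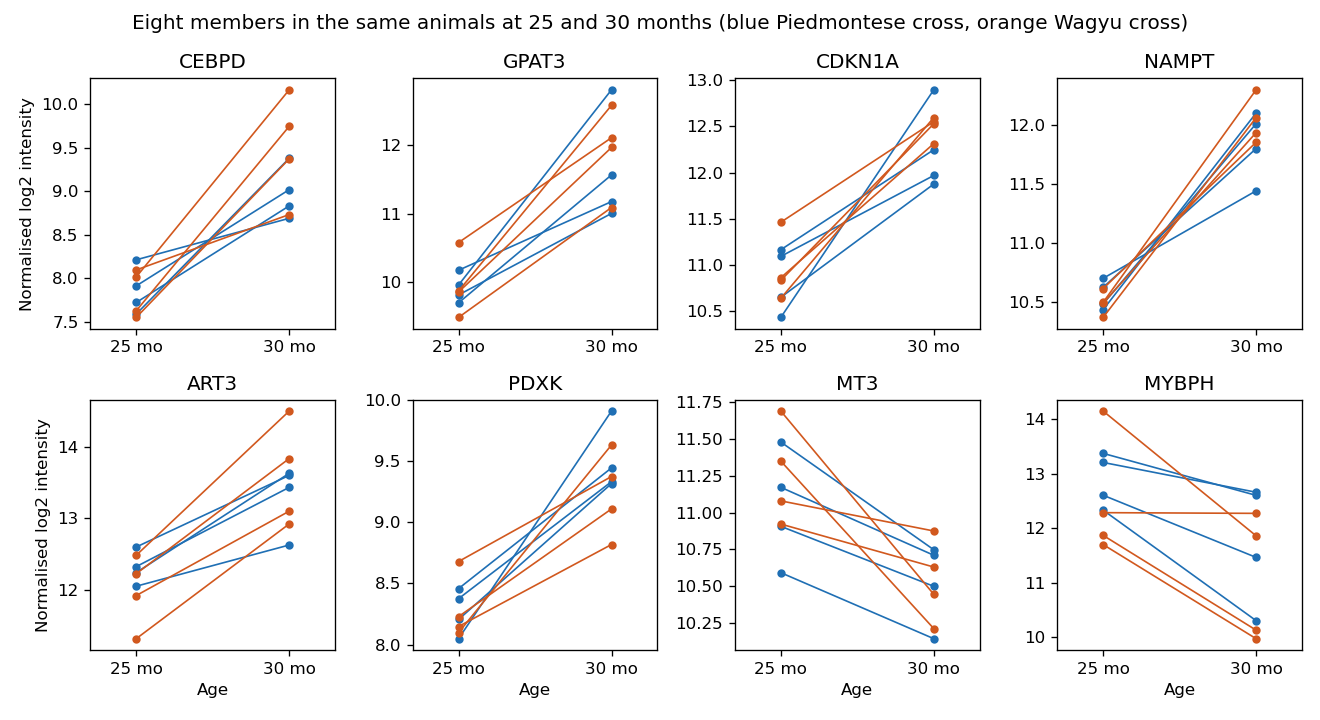
Normalised log2 intensity of 8 members at 25 and 30 months (horizontal axis), with a line for each of 8 animals. CDKN1A, NAMPT, ART3 and GPAT3 rise in every animal, and MYBPH and MT3 fall in every animal, though MT3 changes sign when channels are centred on their medians.

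Of 14 growth arrest and transcription probes 9 rose between 25 and 30 months and none fell, of 14 metabolic enzyme genes 7 rose and none fell, of 3 amino acid transporters all 3 rose, and of 14 ribosome assembly genes 4 rose, including SURF6 by 0.66 (SE 0.07, adjusted p = 0.00019) and NOC2L by 0.38. Of the 21 glucocorticoid-responsive probes 10 rose and none fell, with a median of 0.47, and of 22 fatty acid probes 17 rose. The neutrophil markers fell by a median of 0.36 and the erythroid markers by a median of 0.63, and the proliferation markers fell by a median of 0.37. Of 15 interferon response probes 9 fell and none rose, with a median of -0.51, which turned to 3 and 2 with channel medians, and of 21 fibroblast markers 6 fell and 1 rose, which turned to 2 and 9 with channel medians. Their part in the members' rise was not tested. With channels centred on their medians the median of all probes shifted by 0.56, and relative to that shift the members' median was 0.46; by that scaling 103 members passed upward and 6 downward, 73.6% of the members beside 73.6% of all probes, so that the share of members that passed was then the background share. Under it MYBPH no longer passed and MT3 changed sign. By it 8 of the growth arrest and transcription probes rose and 2 fell, 13 ribosome assembly genes rose, and 3 neutrophil probes rose and 2 fell.

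The crosses were compared at birth. The rule averaged the crosses, but the newborn values that chose the members enter this comparison, so the members' counts in it are a description. No member and no probe passed the test, 0.0% of all probes, while at an unadjusted p under 0.05 by limma there were 30 members and 984 probes, and the smallest adjusted p over the members was 0.721. The members' median difference, Piedmontese minus Wagyu, was 0.36, and 107 of 148 were higher in Piedmontese. The 3 newborns of one cross all exceeded those of the other in 21 members, 15 of them higher in Piedmontese, beside 9.96% of all probes. The direction rests on GW071 and GW175, as the third Wagyu newborn stood with the Piedmontese ones: in the 14 growth arrest and transcription probes all 14 were higher in Piedmontese with a median of 1.04, in the 7 acute phase genes 6 were, and in the 14 ribosome assembly genes 6 were, with a median of -0.17. IL6R showed this split at 12.06, 12.07 and 12.09 against 10.80, 12.07 and 10.62. GW071 and GW175 were labelled with Cy5, as was the Piedmontese newborn GP148, and the other Wagyu newborn, GW146, with Cy3. The part of the dye in this split was not tested. The glucocorticoid-responsive list had a median of 0.93 and the muscle fibre markers of 0.28. From 7 to 30 months, in 5 Piedmontese and 4 Wagyu cattle, again no member and 0.0% of probes passed, with 10 members and 696 probes at an unadjusted p under 0.05 by limma and a median of -0.02.

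**Figure D4:**
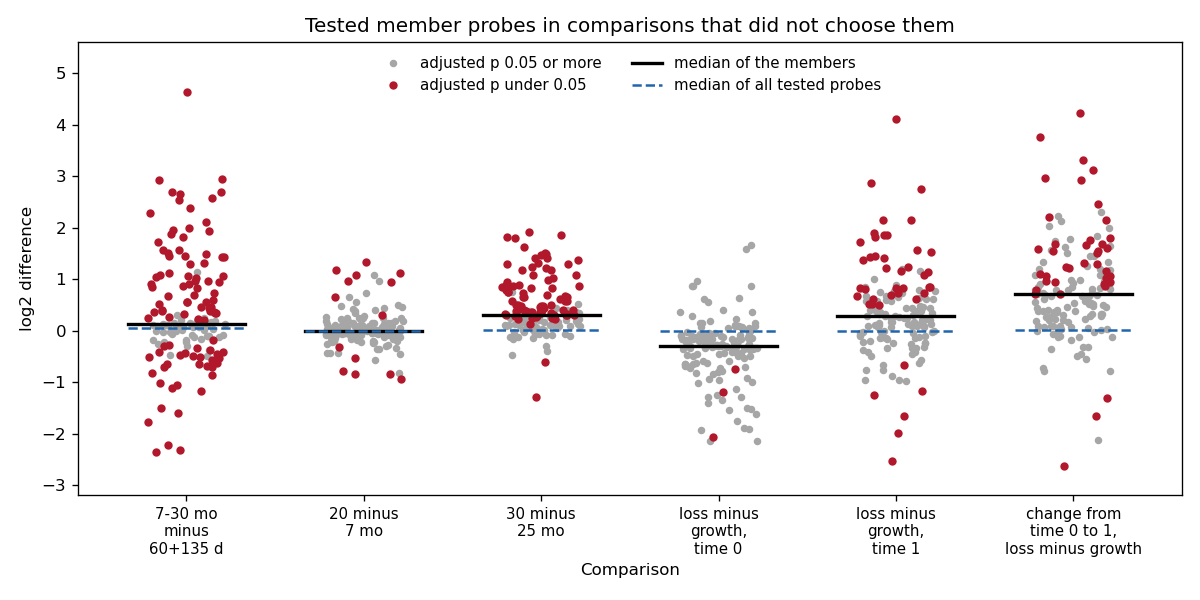
Log2 differences of the 148 tested members (points) in 6 comparisons on the horizontal axis; red points passed the test, the black line is the members' median and the blue dashed line that of all probes. The members' median lies above that of all probes in the comparison of 30 with 25 months (0.31 against 0.01) and in the change between diets (0.71 against 0.00), and below it at diet time 0 (-0.29 against -0.01).

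In the Belmont Red cattle the question was how the members respond to weight loss. At time 0, 3 of 148 members passed, all lower in the group assigned to lose weight, beside 0.996% of all probes, and the members' median difference was -0.29. PDXK was at 8.47, 8.64, 8.91 and 8.86 in the weight loss group and at 10.47, 11.10, 10.59 and 10.97 in the growth group, a difference of -2.06 (SE 0.17, limma adjusted p = 0.0057). CCT3 was lower by a difference of -0.75 (SE 0.11, adjusted p = 0.034). CDKN1A was at 11.12, 11.50, 12.31 and 13.43 against 12.52, 13.91, 12.99 and 14.56, which did not pass (-1.40, SE 0.58, adjusted p = 0.284). The count was 2 without the animals of replicate 1, 1 higher and 1 lower, beside 0.0802% of all probes. It was 0 without those of replicate 2, 3 or 4, beside 0.00669%, 0% and 0%.

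At time 1, with 3 animals on weight loss and 4 on growth, 42 members passed, 36 higher and 6 lower on weight loss, beside 14.3% of all probes; the members' median was 0.29. CDKN1A was at 12.76, 15.20 and 14.93 on weight loss and at 11.06, 11.24, 11.33 and 12.59 on growth, with no overlap, a difference of 2.74 (SE 0.62, limma adjusted p = 0.027). CEBPD was at 11.83, 11.78 and 10.86 against 9.34, 9.30, 9.92 and 10.10 through its higher-ranked probe, a difference of 1.83 (SE 0.30, adjusted p = 0.011). GREB1, first known as an estrogen-induced gene, was at 8.32, 10.38 and 9.81 against 7.34, 7.28, 7.46 and 7.33, a difference of 2.15 (SE 0.42, adjusted p = 0.017). SORT1, a sorting receptor of the secretory pathway, differed by 1.87, the RNA helicase DDX27 by 1.16 and IMPDH2 by 1.14. MYBPH was at 10.15, 9.70 and 8.91 against 12.75, 13.53, 10.42 and 11.81, a difference of -2.54 (SE 0.68, adjusted p = 0.044). SAA3 was at 6.81, 6.43 and 7.05 against 8.18, 9.26, 8.97 and 8.63, a difference of -1.99 (SE 0.27, adjusted p = 0.0063), but at time 0 its difference was already -1.94 (SE 0.58), which did not pass (adjusted p = 0.154). MT3 differed by -1.67 and LIMS2 by -1.18. MYC, at 11.76, 12.81 and 10.99 against 10.73, 10.49, 10.06 and 11.47, did not pass (adjusted p = 0.127).

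At time 1 the growth arrest and transcription probes had 5 of 14 higher and none lower, the ribosome assembly genes 5 of 14 higher and none lower, and the muscle structure genes 3 of 6 lower. Of 13 FOXO and atrophy probes 4 were higher and none lower, and of the glucocorticoid-responsive probes 3 were higher and 1 lower. Of 25 sarcomere isoform probes 16 were lower on weight loss, with a median of -1.48, and of 21 fibroblast markers 11 were, with a median of -1.58. The muscle fibre markers averaged 14.12 to 14.38 on weight loss and 15.17 to 16.41 on growth, having been at 14.61 to 15.17 and 15.01 to 15.23 at time 0, and the fibroblast markers 9.20 to 9.87 and 10.73 to 11.94; their part was not tested. The count of members was 7, 30, 24 and 9 without the arrays of replicates 1 to 4 in turn. Animal RL24 was on replicate 2 and on replicate 3, so only leaving out replicate 1 or 4 removed an animal on weight loss. The shares of all probes were 2.17%, 9.60%, 7.98% and 1.96%.

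Because the groups differed at time 0, the change of each animal from time 0 to time 1 was compared between diets. By this test 39 members passed, 36 with the more positive change on weight loss and 3 with the more negative, beside 8.32% of all probes; the members' median was 0.71, and 127 of 148 were positive. CDKN1A changed by 1.64, 3.69 and 1.51 on weight loss and by -1.46, -2.67, -1.66 and -1.97 on growth, a difference of 4.22 (SE 0.54, limma adjusted p = 0.010). The arrays of time 0 and time 1 were on separate slides, so the sign of a group's own change and the slide cannot be told apart, whereas the difference between diets was taken within slides. MYC changed by 2.16, 1.94 and -0.24 against -1.61, -1.18, -2.93 and -1.03, a difference of 2.97 (SE 0.65, adjusted p = 0.035). CEBPD differed by 3.13 and 2.45 in its 2 probes. PDXK changed by 0.41, 0.44 and -1.16 against -1.92, -2.09, -1.73 and -1.39, a difference of 1.68 (SE 0.39, limma adjusted p = 0.040). PDXK was already lower in the weight loss group at time 0, so this more positive change is not a higher level on weight loss. H1-2 changed by -2.83, -1.62 and -0.15 against 0.44, 0.94, 1.68 and 1.29, a difference of -2.62 (SE 0.58, adjusted p = 0.035), and SLC38A4, an amino acid transporter, differed by -1.66.

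All 5 genes of protein folding and nuclear transport passed with a positive difference in change, with a median of 1.05, as did 5 of 14 ribosome assembly genes, in which all 14 differences were positive with a median of 0.64, and 5 of 14 metabolic enzyme genes. Heat shock probes outside the members had 4 of 18 higher and none lower, and immediate early genes, 1 of them a member, 5 of 19. The sarcomere isoforms had 8 of 25 lower. Of the 6 muscle structure members none passed, MYBPH included (-2.12, SE 0.75, adjusted p = 0.115), and of the 7 acute phase members none passed, with SAA3 at -0.19 (SE 0.48, adjusted p = 0.836). With channels centred on their medians 57 members passed, beside 9.03% of all probes. The count rests on few animals: without those of replicate 1, 1 member, CDKN1A, still passed, beside 0.160% of all probes. Without the arrays of replicates 2, 3 and 4 it was 14, 27 and 14, beside 2.55%, 4.79% and 0.836%. Leaving out replicate 3 removed no animal on weight loss from this test, as RL24 was also on replicate 2.

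**Figure D5:**
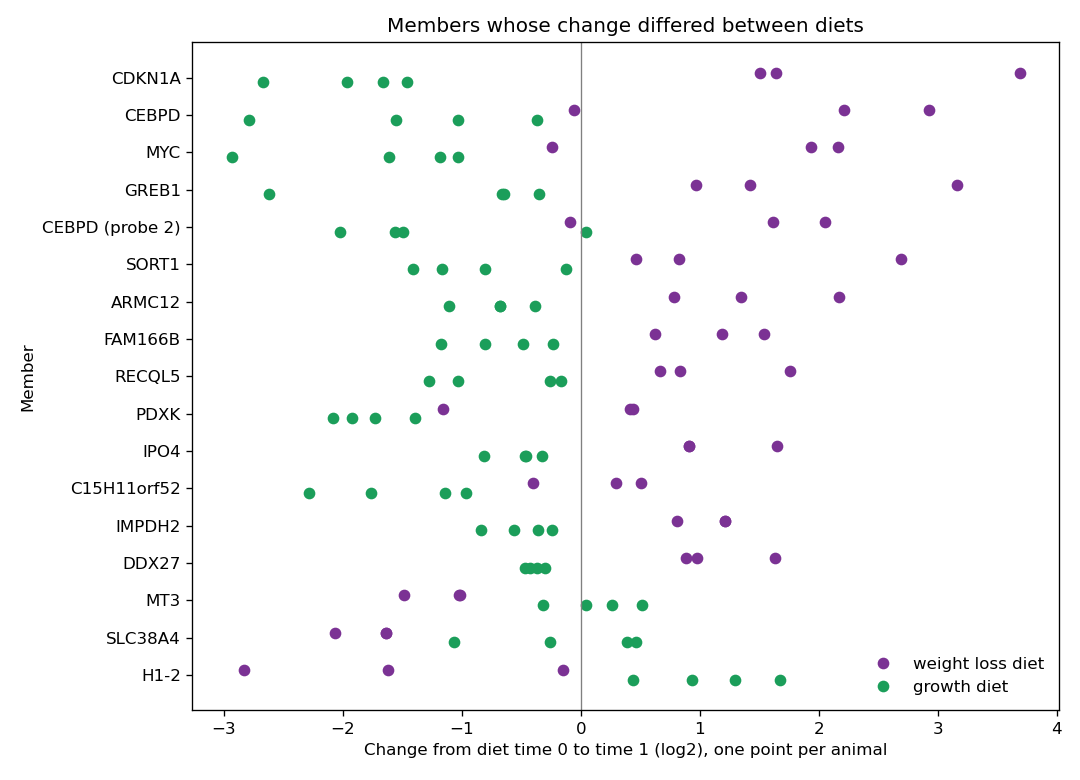
Change in normalised log2 intensity from time 0 to time 1 (horizontal axis) in each animal for 17 named member probes on the vertical axis that passed the test, 3 animals on weight loss and 4 on weight growth. CDKN1A rises in all 3 animals on weight loss, by 1.51 to 3.69, and falls in all 4 on growth.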

How the data were processed

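RNA from muscle biopsies was hybridised to two-colour Agilent bovine arrays. The authors deposited scanner output of Feature Extraction 9.5.1, from which the background-subtracted, mean and background signal intensity of each dye were read as linear intensity; the deposited log10 ratio of red over green entered 1 alternative. Members were chosen on log2 of the background-subtracted intensity (floor 1) minus each channel's median. The members, gene lists and tests were chosen with earlier results of these data known. For the tests, limma 3.58.1 in R 4.3.3 applied normexp (offset 50), loess within arrays and Aquantile between arrays, each probe's dye effect was removed, and each animal gave 1 value; channels of 1 animal at 1 time were averaged. Probes well above background in at least 24 of 96 channels were tested (14954 of 21475), and 2 members did not pass. Tests were two-sided with Benjamini-Hochberg adjustment at 0.05, and p-values measure only the spread between these animals. The change between diets used 1 difference per animal, and the 7 to 20 and 25 to 30 month tests took the animal as a block, since the labels name the same animals at both ages. Members were named if among the first 20, in a list, or among the 5 largest rises or falls of a comparison; others named were chosen after their values were seen. Folds against a group with no channel above background are lower bounds from the lowest signal above background. In simulated data with 200 probes shifted by 1 log2 unit, the share recovered was 50.5% for 135 against 60 d, 28% between crosses at birth, 62% for diets at time 1, 31.5% for the change between diets and 98.5% for 30 against 25 months. Gene names came from the array files, updated through RefSeq (ARS-UCD2.0) for 120 of 150 members. Genome positions and promoters are not analysed here. The number of arrays limits the precision.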

Additional observations from a re-analysis of the deposited data

Results flagged for a closer look

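The median of the members at 135 d was 8.98 in GP672, far above the other 4 fetuses of that age, at 8.44 to 8.53; 28 groups were looked at in this way, and chance singles out about 1 in 20. The channel also differs in its markers, with muscle fibre markers at 9.48 and adipocyte markers at 12.75, and the part of this in its members' values was not tested.

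The change from time 0 to time 1 differed between the weight loss and weight growth diets in 39 of 148 tested members. This was by the interaction in limma (adjusted p under 0.05), beside 8.32% of all probes. At time 0 the members' median difference was already -0.29, and the muscle fibre and fibroblast markers moved with the diets at time 1; their part was not tested.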

How the results depend on the processing

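Counts of members between crosses at birth were 0 under every alternative, including the replicate block by array (0), and 0 from 7 to 30 months. In what follows, percentages in brackets are the shares of all probes that passed in the same settings. Between 135 and 60 d the 5 members (5.59%) became 3 with channel medians (0.762%) and 31 with the slide as a block (25.8%). When replicates were left out in turn they were 2 to 25 (2.12% to 19.2%), and without replicate 2 at 135 d 31 (22.3%). From 7 to 20 months the 14 (3.71%) became 1 with channel medians (0.0869%) and 4 with the slide as a block (0.334%). With replicates left out they were 0 to 6 (0.120% to 1.74%), and without the replicate block by animal 11 (3.24%). At diet time 0 the 3 (0.996%) became 1 with channel medians (0.127%) and 0 with the deposited log ratio (0.0267%). With replicates left out they were 0 to 2 (0% to 0.0802%). At time 1 the 42 (14.3%) became 53 with channel medians (16.3%) and 29 with no filter on dim probes (8.58%). With replicates left out they were 7 to 30 (1.96% to 9.60%). The 39 of the change between diets (8.32%) became 57 with channel medians (9.03%) and 24 with no filter (4.34%). With replicates left out they were 1 to 27 (0.160% to 4.79%). The count stayed within 1.5 times at 7 to 30 months against early gestation, at 85 to 107 (63.4% to 77.7%). It also did at 30 against 25 months, at 55 to 109 (13.9% to 73.6%), and was 68 without the replicate block (15.7%). Of the 150 members, 101 to 149 stayed among the first 150 under the alternatives: 129, 111, 125 and 143 with replicates 1 to 4 left out, 101 with Piedmontese and 114 with Wagyu channels alone, 113 with Cy3 and 108 with Cy5 alone, and 124 with the full normalisation. Over 394 alternative values of 48 named results, 292 kept direction and side of the threshold, 101 kept direction but no longer passed, and MT3 at 30 against 25 months turned from -0.62 to 0.32 with channel medians. The cause of these moves was not tested.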
